A study of Homo sapiens with 7 samples.

Results

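The cytosolic ribosomal protein genes are the nuclear genes that encode the proteins of the ribosome in the cytoplasm. They were taken by name from the protein-coding genes of GENCODE release 44, as symbols made of RPL or RPS, a number and an optional letter suffix, together with RPLP0, RPLP1, RPLP2 and RPSA. The rule gave 87 of 20033 protein-coding genes, 53 named for the large and 34 for the small ribosomal subunit. Kinases of the RPS6K family, readthrough genes and the fusion gene FAU lie outside it, and 10 members are paralogs of other members or Y-linked copies, such as RPL3L, RPL39L and RPS4Y1. H3K4me1, the monomethylated form of lysine 4 on histone H3, was mapped by ChIP-seq in SW1990, an established human pancreatic cancer cell line. The series held 6 ChIP libraries, 1 each for KMT2D, EBF2 and H3K4me1 in NC cells (negative control shRNA) and in KMT2D-KD cells (shRNA against KMT2D), and 1 input library of SW1990 cells. Every comparison between NC and KMT2D-KD therefore sets 1 library against 1 library, with no replicate check and no p-value. The level of KMT2D after knockdown was not analysed here, and whether the knockdown cells came from a pool or a clone was not given in the sources used here.

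Ribosomal protein genes are housekeeping genes, transcribed strongly in nearly every cell. Their promoters lie in CpG islands, and transcription starts at a cytosine inside a pyrimidine-rich stretch, which gives the mRNAs the 5′ terminal oligopyrimidine (TOP) tract through which mTOR signalling controls their translation. At active promoters, nucleosomes next to the start usually carry trimethylated lysine 4, and H3K4me1 flanks them on the outside. KMT2D is a methyltransferase that deposits H3K4me1, mainly at enhancers, and EBF2 is a transcription factor.

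The H3K4me1 list of NC cells had 64843 intervals and that of KMT2D-KD cells 92135, an interval being a stretch of hg38 called as enriched over the input by the authors. The condition of the cells that supplied the single input is not given, and the fold enrichments of both libraries rest on it. Depth recovered from the intervals was 9.89 fragments per 1000 bases in NC and 9.29 in KMT2D-KD, so the longer list came from the slightly shallower library, at 0.94 times the NC depth. An interval rested on a median of 12 fragments in each list, and intervals at the lowest background needed at least 8 fragments in NC and 7 in KMT2D-KD. A gene without an interval is thus a gene without an enrichment detectable at this depth. Because the KMT2D-KD list was longer everywhere, the main shares over the members are set against those over all 20033 protein-coding genes. Shares carry exact 95% intervals (Clopper-Pearson), and these account for counting error alone.

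The sequence at the start of several members is shown first, because distances below are counted from it and because the H3K4me1 intervals lay away from it. Each line gives 65 bases, from 50 before the start base to 15 bases into the transcribed strand, 5′ to 3′, with the longest pyrimidine run within a 15-base window around the start in capitals (RefSeq promoters, GRCh38.p14). RPS3, RPS19, RPS14, RPS24, RPS16 and RPSA were among the members with the strongest H3K4me1 intervals, and RPS6, RPLP2, RPS3A and RPL13A had none within 5000 bases.
RPS3, chr11:75399468-75399532, plus strand: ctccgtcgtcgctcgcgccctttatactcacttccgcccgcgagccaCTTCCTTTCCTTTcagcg
RPS19, chr19:41860205-41860269, plus strand: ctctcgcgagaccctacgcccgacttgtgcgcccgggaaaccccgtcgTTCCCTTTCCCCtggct
RPS14, chr5:150449725-150449789, minus strand: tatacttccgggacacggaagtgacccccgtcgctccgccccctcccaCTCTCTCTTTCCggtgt
RPS24, chr10:78033813-78033877, plus strand: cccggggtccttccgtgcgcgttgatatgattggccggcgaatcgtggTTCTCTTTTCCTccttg
RPS16, chr19:39435935-39435999, minus strand: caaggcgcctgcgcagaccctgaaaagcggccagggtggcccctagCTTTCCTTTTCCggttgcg
RPSA, chr3:39406670-39406734, plus strand: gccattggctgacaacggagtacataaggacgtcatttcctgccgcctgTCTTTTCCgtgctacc
RPS6, chr9:19380222-19380286, minus strand: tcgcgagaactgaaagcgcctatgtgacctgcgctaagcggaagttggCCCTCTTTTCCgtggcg
RPLP2, chr11:809917-809981, plus strand: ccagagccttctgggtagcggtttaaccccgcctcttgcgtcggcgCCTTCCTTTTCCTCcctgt
RPS3A, chr4:151099578-151099642, plus strand: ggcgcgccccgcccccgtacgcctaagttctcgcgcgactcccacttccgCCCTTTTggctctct
RPL13A, chr19:49487558-49487622, plus strand: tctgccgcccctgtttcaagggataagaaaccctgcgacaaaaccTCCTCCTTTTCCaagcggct

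In the promoters printed above, a run of at least 6 pyrimidines stood at genes with strong H3K4me1 nearby and at genes without any. In their unprinted promoters, RPS4X and RPL10L had longest runs of 5 and 3 bases. RPS4X was among the members with the strongest intervals, and RPL10L had none within 5000 bases. Of the 87 members, 70 had a promoter in the RefSeq table, and in 64 of these the start lay within 50 bases of the canonical GENCODE transcript start. In the 15 bases from 5 before the start to 10 after it, a run of at least 6 pyrimidines was found in 70.0% of the 70 promoters (95% interval 57.9 to 80.4%), against 13.6% of 15345 protein-coding promoters and 13.8% of all 27305 promoters in the table. A cytosine at the start base was likewise present in 70.0% of member promoters, against 11.3% of protein-coding promoters and 4093 of the 27305 promoters in all. Motifs were searched on both strands over the 300 bases of each promoter. The GA-binding protein core CCGGAAG stood in 32.9% of member promoters (22.1 to 45.1%), against 14.4% and 10.7%. The YY1 core ATGGC stood in 35 of the 70 (37.8 to 62.2%), against 37.4% and 38.4%. The SP1 core GGGCGG was found in 52.9% (40.6 to 64.9%), against 59.2% and 44.6%, and the TATA box TATAAA in 7 of the 70 (4.12 to 19.5%), against 9.63% and 12.0%. The median promoter of the members held 23 CpG dinucleotides, close to the 22 of protein-coding promoters and above the 14 of all promoters. A match is only a description of the letters in this window.

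The first 500 bases of the members held no H3K4me1 interval in either list. The count was 0 of 87 in NC and 0 of 87 in KMT2D-KD, which allows a share of up to 4.15%, while 1.24% of all protein-coding genes had one in NC and 2.11% in KMT2D-KD. The background share itself was below that limit, so a difference from it was not detectable with 87 genes. Measured from the canonical transcript start in place of the first base of the gene record, the count was also 0 in each list.

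H3K4me1 within 1000 bases of the 5′ end was rare, at shares whose intervals included those of all protein-coding genes. In NC it was found at 3 of 87 members (3.45%, 95% interval 0.717 to 9.75%), against 6.43% of all protein-coding genes. In KMT2D-KD it was found at 7 of 87 members (8.05%, 3.3 to 15.9%), against 11.9% of all protein-coding genes. The ratio of these counts was 1.22 on the log2 scale for the members and 0.88 for all genes. None of the 10 members was in both lists. Of all 20033 protein-coding genes, 877 were in both lists, 412 in NC alone and 1502 in KMT2D-KD alone. The member counts of 3 and 7 are small, and a difference in overlap was not tested.

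Few members were marked within 1000 bases. The NC intervals of RPS27, RPL31 and RPL7 all had fold enrichments below the list median of 4.16, and of the 7 members in KMT2D-KD 5 had one above the list median of 4.17. RPS27, mutated in some patients with Diamond-Blackfan anaemia, had an NC interval 838 to 1055 bases inside the gene with a fold enrichment of 2.82 over input, resting on 10 fragments (95% Poisson interval 4.8 to 18.4). RPL31 and RPL7 had theirs upstream of the start, at fold enrichments of 2.62 and 4.04. In KMT2D-KD they were RPL27, RPS16, RPS27A, RPL15, RPL35A, RPL26L1 and RPL30, and all 7 intervals lay upstream. The one nearest to a start was that of RPL30, 200 to 447 bases upstream, with a fold enrichment of 4.52 on 14 fragments (7.65 to 23.5). RPL27 followed at 361 to 600 bases upstream with a fold enrichment of 4.55 on 11 fragments (5.49 to 19.7). RPS27A, which encodes a small-subunit protein fused to ubiquitin, had an interval 912 to 1358 bases upstream with a fold enrichment of 3.34. RPS16 and RPL15 each had an upstream interval of fold enrichment 4.93. No interval within 1000 bases of a member reached a fold enrichment of 5 in either list. Of all protein-coding genes, 1.14% had one that did in NC and 2.99% in KMT2D-KD. A count of 0 of 87 allows a share of up to 4.15%, so a difference from these shares was not detectable.

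Beyond the first 1000 bases most members were marked, and most intervals lay inside the gene record. Within 5000 bases of the 5′ end, 52 of 87 members had an H3K4me1 interval in NC (59.8%, 48.7 to 70.1%), against 30.2% of all protein-coding genes. In KMT2D-KD the count was 69 of 87 (79.3%, 69.3 to 87.3%), against 42.9% of all protein-coding genes. The member share was above the background share in each list, with intervals that did not include it.

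Against all protein-coding genes, the members had the higher shares on the downstream side. From 1000 to 5000 bases downstream, 49 members had an interval in NC (56.3%, 45.3 to 66.9%), against 20.9% of all protein-coding genes. In KMT2D-KD 63 members did (72.4%, 61.8 to 81.5%), against 31.0% of all protein-coding genes. Shares above those of all protein-coding genes were also seen elsewhere, since 38.5% of mitochondrial ribosomal protein genes were marked downstream by the NC list and 57.7% by the KMT2D-KD list, and 8 of 16 other genes of the translation machinery were by each. Upstream the members resembled other genes. From 1000 to 5000 bases upstream, 13 members had an interval in NC (14.9%, 8.2 to 24.2%), against 13.5% of all protein-coding genes. In KMT2D-KD 22 members did (25.3%, 16.6 to 35.7%), against 20.9% of all protein-coding genes. Of the marked members, 39 of 52 in NC and 45 of 69 in KMT2D-KD had intervals on the downstream side alone, and 3 and 6 had them on the upstream side alone.

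**Figure D1:**
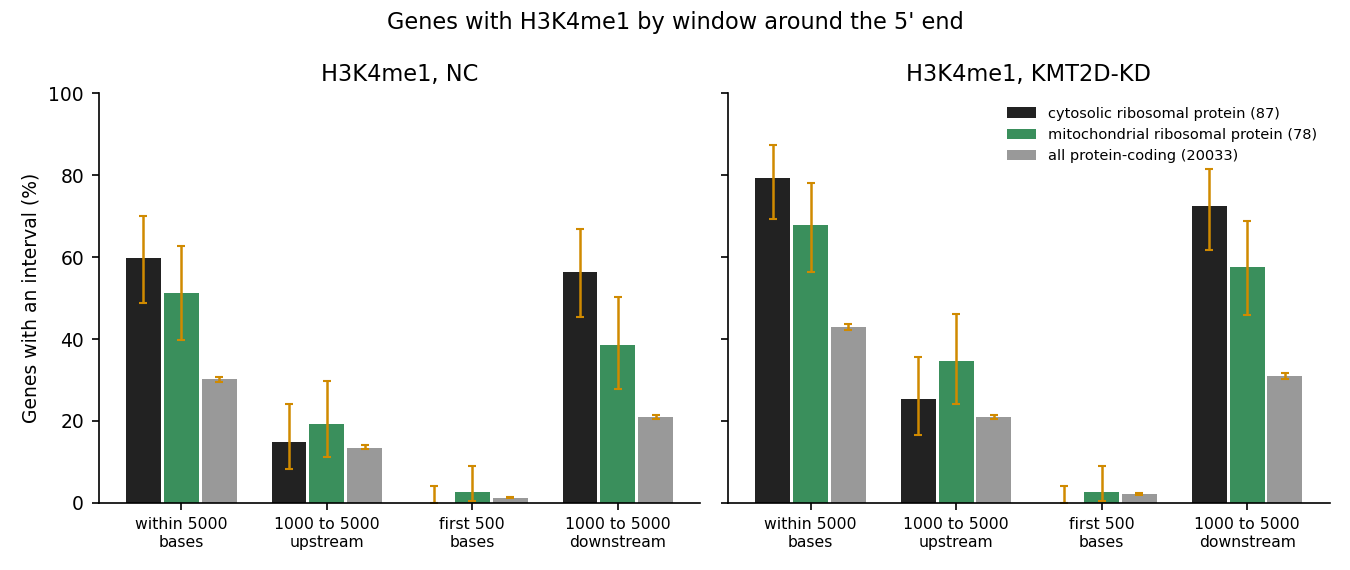
Share of genes with an H3K4me1 interval in 4 windows around the 5′ end (y axis, percent), for the cytosolic ribosomal protein genes, the mitochondrial ribosomal protein genes and all protein-coding genes, in NC (left) and KMT2D-KD (right), with bars from 0 and exact 95% counting intervals in orange. The cytosolic genes stand highest in the downstream window, at 56.3% in NC and 72.4% in KMT2D-KD, and at 0 in the first 500 bases.

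In bins of 500 bases, the members formed an unmarked start followed by a broad downstream shoulder. The highest bin was 2500 to 2999 bases downstream in both lists. It was occupied at 30 members in NC (34.5%), against 7.61% of all protein-coding genes, and at 43 members in KMT2D-KD (49.4%), against 12.0%. In NC the number of members with an interval was 7 in the bin from 1000 bases downstream, 15, 24, 30, 27, 22 and 20 in the next 6 bins, and 11 in the last bin before 5000 bases. In KMT2D-KD the corresponding counts were 8, then 21, 34, 43, 40, 37 and 25, and then 19. Over all protein-coding genes the highest bin was nearer to the start, at 2000 to 2499 bases in NC (8.67%) and at 1500 to 1999 bases in KMT2D-KD (13.9%). No upstream bin held more than 5 members in NC or 12 in KMT2D-KD. KMT2D-KD had more marked members than NC in 17 of the 20 bins, as many in 1 and fewer in 2, while for all protein-coding genes KMT2D-KD was above NC in all 20. Measured from canonical transcript starts the highest bin was the same, with 31 members in NC and 43 in KMT2D-KD.

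**Figure D2:**
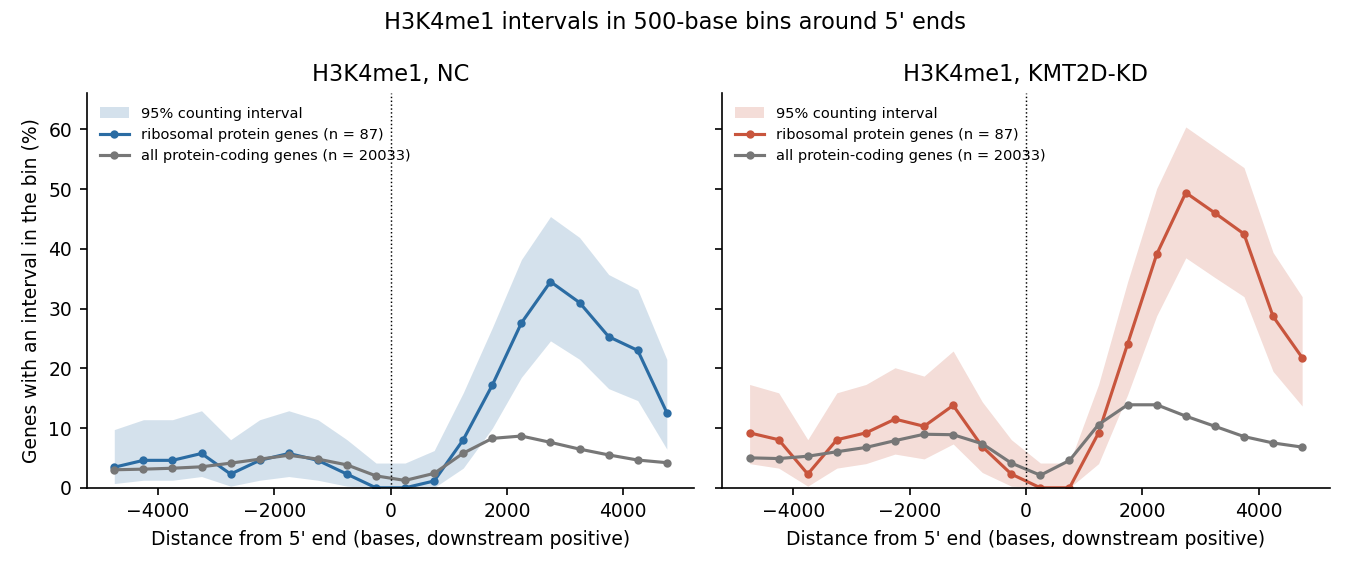
Share of genes with an H3K4me1 interval (y axis, percent) in 500-base bins from 5000 bases upstream to 5000 bases downstream of the 5′ end (x axis), in NC (left) and KMT2D-KD (right). The coloured line with its shaded 95% counting interval is the 87 ribosomal protein genes, highest at 34.5% and 49.4% in the bin from 2500 bases, and the grey line is all 20033 protein-coding genes.

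The nearest downstream interval began a median of 2316 bases from the 5′ end in NC (quartiles 1782 and 2767, 49 members) and 2356 bases in KMT2D-KD (quartiles 1863 and 2875, 63 members). Over all protein-coding genes with a downstream interval the medians were 1950 and 1778 bases. The members' mark thus began farther into the gene than over all marked genes, in each library. At other genes of the translation machinery the medians were larger still, 2853.5 in NC and 2590.5 in KMT2D-KD (8 genes in each). At mitochondrial ribosomal protein genes they were smaller, 1402 and 1389. Where a member had intervals on both sides, the unmarked stretch around the start was a median of 4187.5 bases in NC (10 members) and 3601 bases in KMT2D-KD (18 members), against 3522 and 3142 bases over all protein-coding genes.

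Coverage gave the same asymmetry. Intervals covered a mean of 478 of the 5000 downstream bases of a member in NC and 799 in KMT2D-KD, against 135 and 235 over all protein-coding genes. Upstream the mean was 93.8 bases in NC and 202 in KMT2D-KD, against 93.9 and 168. The ratio of downstream to upstream coverage was 5.1 in NC and 3.95 in KMT2D-KD for the members, and 1.43 and 1.39 for all protein-coding genes. At least 1000 downstream bases were covered at 16 members in NC (18.4%) and 29 in KMT2D-KD (33.3%), against 3.73% and 7.56% of all protein-coding genes.

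**Figure D3:**
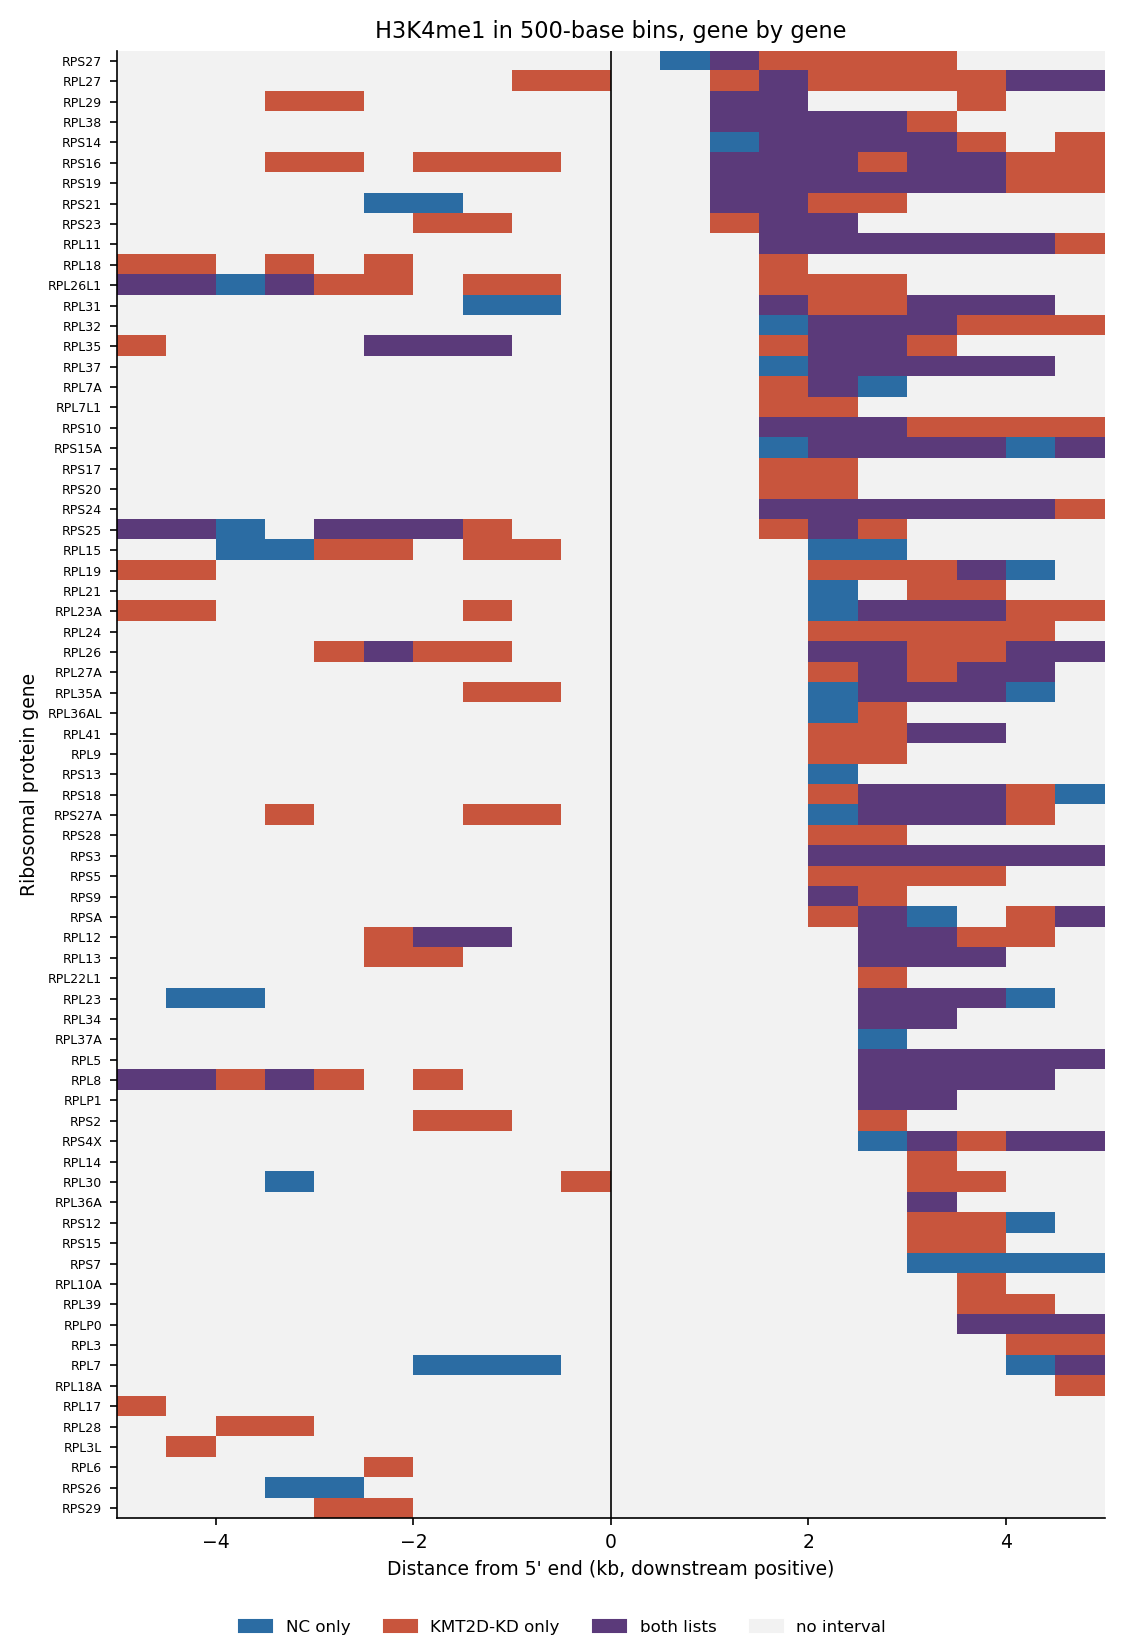
H3K4me1 intervals at members that had any, one row per gene and one column per 500-base bin (x axis, kb from the 5′ end, downstream positive), coloured by the list that held an interval in the bin. Genes are ordered by their first marked downstream bin, and the bin after the start is empty in every row.

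Most intervals lay within the gene body. In NC 102 intervals fell within 5000 bases of a member, of which 18 lay upstream, 71 inside the gene record, 5 across a gene end and 8 beyond the 3′ end. In KMT2D-KD there were 143 intervals, 1 of them near a pair of members, and counted per member 41 lay upstream, 75 inside, 12 across an end and 16 beyond the 3′ end. Members are short genes, with a median length of 5548 bases against 27471 for all protein-coding genes, and 52 of the 87 were at least 5000 bases long. Of the 102 NC intervals, 39 overlapped an exon of the canonical transcript, and 15 had their summit in one. Those 39 were 34 of the 71 inside the gene record and all 5 across a gene end. In KMT2D-KD 49 overlapped an exon and 10 had their summit in one. Those 49 were 37 of the 75 inside and all 12 across an end. The sequence under the summits was poor in CpG. The 150 bases around a summit held a median of 1 CpG near members in NC and 2 in KMT2D-KD, and 1 over all intervals of each list. The windows of 4 strong summits outside exons are printed on the strand of the gene (hg38, CG in capitals), to set them beside the CpG-rich starts shown above.
RPS3, NC, chr11:75402957-75403106, plus strand: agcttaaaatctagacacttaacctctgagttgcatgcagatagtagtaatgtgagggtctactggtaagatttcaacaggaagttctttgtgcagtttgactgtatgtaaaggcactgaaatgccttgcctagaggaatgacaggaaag
RPS14, NC, chr5:150447226-150447375, minus strand: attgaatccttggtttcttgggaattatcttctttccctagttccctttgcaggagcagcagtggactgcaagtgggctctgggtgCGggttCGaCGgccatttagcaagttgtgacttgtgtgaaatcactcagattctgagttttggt
RPS24, KMT2D-KD, chr10:78036661-78036810, plus strand: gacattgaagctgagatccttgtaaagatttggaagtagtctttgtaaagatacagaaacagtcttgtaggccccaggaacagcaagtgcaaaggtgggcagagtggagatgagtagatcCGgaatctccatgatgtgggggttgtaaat
RPS4X, KMT2D-KD, chrX:72271769-72271918, minus strand: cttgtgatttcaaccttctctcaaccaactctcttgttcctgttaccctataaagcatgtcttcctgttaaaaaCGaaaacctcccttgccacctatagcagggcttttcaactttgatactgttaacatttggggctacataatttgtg

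In NC the strongest interval of any member was at RPS3, a protein of the mRNA entry site of the small subunit. It spanned 2408 to 4646 bases from the 5′ end (chr11:75401923-75404161), with a fold enrichment of 7.32 and 22 fragments at the summit (13.8 to 33.3), and its −log10 q was above that of 98.4% of the NC list. In KMT2D-KD the RPS3 interval spanned 2106 to 4293 bases with a fold enrichment of 6.16 on 23 fragments (14.6 to 34.5). RPS3 was thus marked in the same stretch in both libraries, and the fragment intervals overlapped.

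RPS19, the gene most often mutated in Diamond-Blackfan anaemia, had 1 long interval in each list. It spanned 1474 to 3504 bases in NC, with a fold enrichment of 6.66 on 18 fragments (10.7 to 28.4). In KMT2D-KD it spanned 1304 to 5239 bases, with a fold enrichment of 6.58 on 17 fragments (9.9 to 27.2). The summit enrichment was nearly equal and the KMT2D-KD interval was the longer. RPS14, whose loss of one copy contributes to the anaemia of the 5q deletion syndrome, had 3 NC intervals of fold enrichment 4.06, 6.09 and 5.17 between 1421 and 3353 bases. In KMT2D-KD a stretch from 1584 to 3850 bases formed 1 interval with a fold enrichment of 6.3, and a second interval of 3.62 began at 4698 bases. RPS15A, also a small-subunit protein and among the 5 strongest members in NC, reached a fold enrichment of 5.39 in NC and of 5.75 in KMT2D-KD.

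In KMT2D-KD the 5 members with the highest −log10 q were RPL8, RPS24, RPS4X, RPS16 and RPSA. RPL8, a protein of the peptidyl transferase region, was the exception in position, since its strongest interval lay upstream, 2893 to 3514 bases before the start. It had a fold enrichment of 8.44 on 27 fragments (17.8 to 39.3) in KMT2D-KD, and the overlapping NC interval had a fold enrichment of 2.55 on 11 fragments (5.49 to 19.7). RPS24, another Diamond-Blackfan anaemia gene, had a fold enrichment of 8.35 on 21 fragments (13.0 to 32.1) at 2377 to 4176 bases in KMT2D-KD. In NC the interval over the same stretch reached 3.92 on 15 fragments (8.4 to 24.7). RPS4X, the X-linked copy whose Y-linked counterparts are RPS4Y1 and RPS4Y2, had a KMT2D-KD interval from 3483 to 7904 bases with a fold enrichment of 8.35. The summit of that interval lay 5404 bases from the 5′ end, beyond the 5000-base window, and the highest NC value was 5.27. RPS16 went from 5.62 in NC to 7.24 in KMT2D-KD, and RPSA, also known as the laminin receptor precursor, from 5.62 to 7.97. All 5 had the higher value in KMT2D-KD, where they were picked for their strength, which bears on the direction of their differences. The fragment intervals of RPL8 and of RPS24 overlapped between the libraries.

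**Figure D4:**
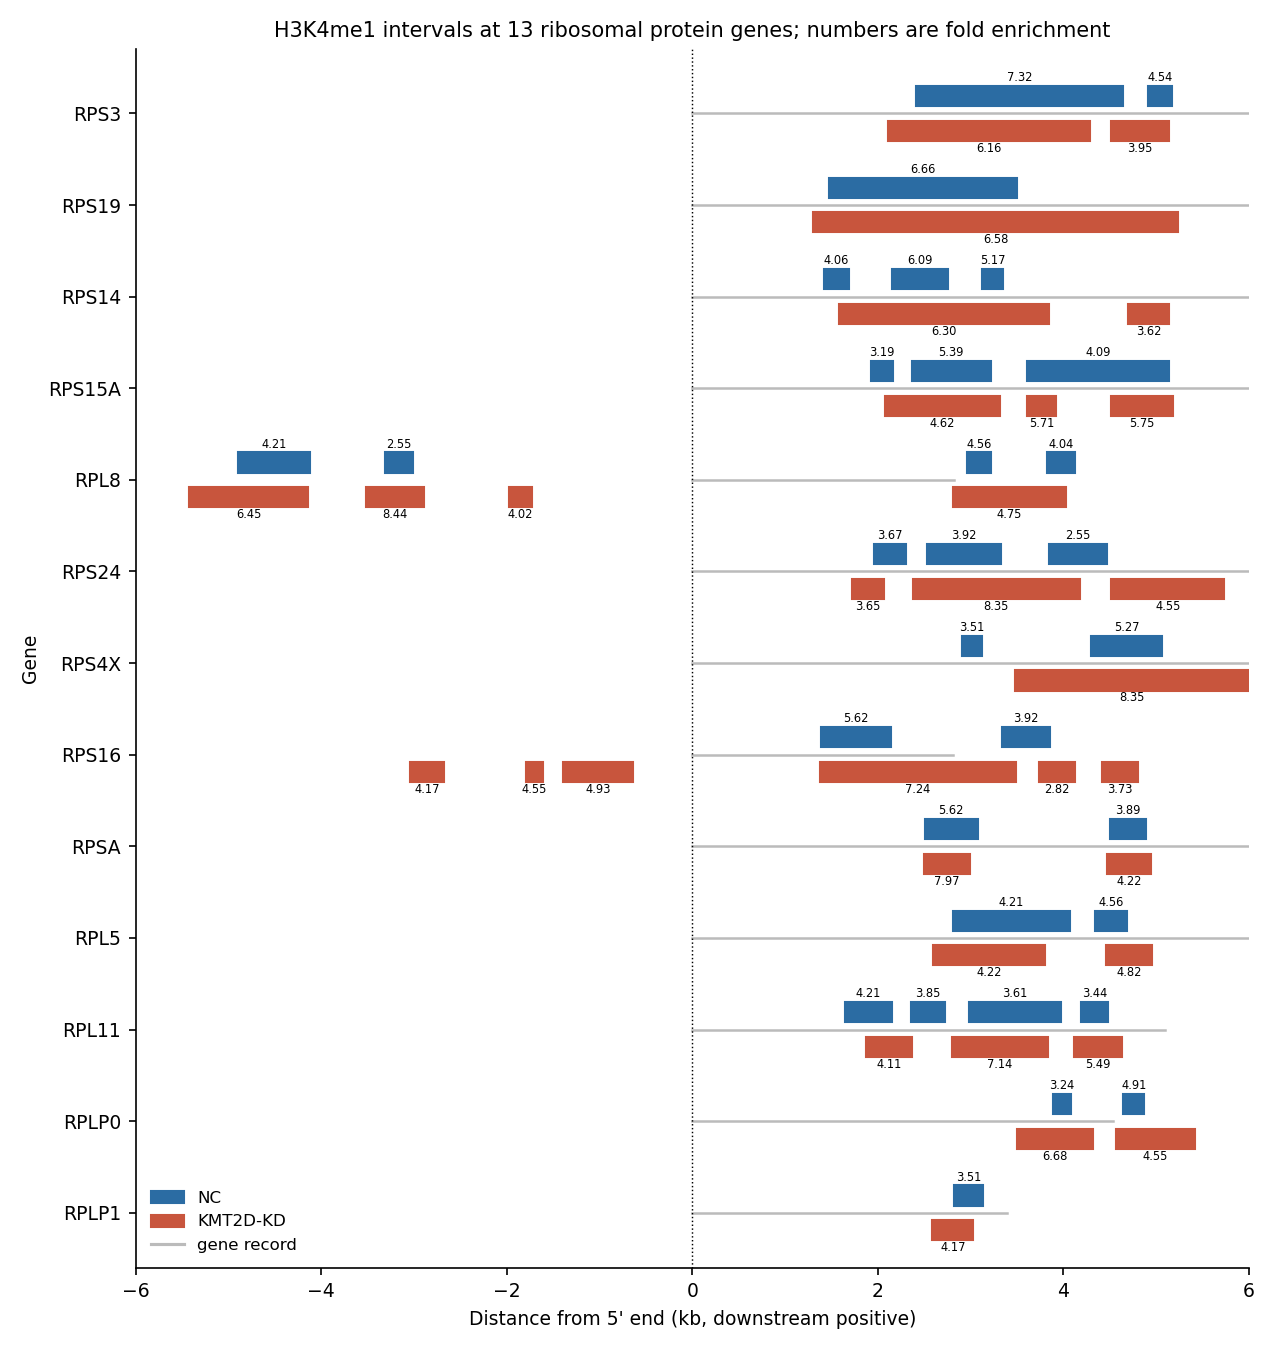
H3K4me1 intervals at 13 ribosomal protein genes as bars along the distance from the 5′ end (x axis, kb, downstream positive), NC above and KMT2D-KD below the grey gene record, with each interval's fold enrichment beside it and the axis ending at 6 kb. RPL8 and RPS16 have intervals upstream, and the other genes have them downstream only.

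Proteins of known functional sites were described by the lists they belong to, which are too short for more than their values. RPL5 and RPL11, which bind 5S rRNA and restrain MDM2 when ribosome assembly fails, were marked downstream in both lists. RPL5 reached a fold enrichment of 4.56 in NC and 4.82 in KMT2D-KD. RPL11 reached 4.21 in NC, with 4 intervals between 1650 and 4485 bases, and 7.14 in KMT2D-KD, with 3 intervals. Of the 4 genes of the ribosomal stalk, which recruits elongation factors, RPLP0, RPLP1 and RPL12 were marked in both lists and RPLP2 in neither. RPLP0 reached 4.91 in NC and 6.68 in KMT2D-KD, and RPLP1 reached 3.51 and 4.17. Of the 3 exit tunnel genes RPL4, RPL17 and RPL39, none was marked in NC when counted from the gene record start. RPL17 and RPL39 were marked in KMT2D-KD, at fold enrichments of 3.87 and 2.92. Around its canonical start, RPL4 had 1 NC interval of fold enrichment 2.88. RPL3, close to the peptidyl transferase centre, had no NC interval and 1 KMT2D-KD interval of fold enrichment 3.04 on 7 fragments (2.81 to 14.4). Around the canonical start of RPL3 there were 2 KMT2D-KD intervals, the higher at 3.42. Of 17 genes mutated in Diamond-Blackfan anaemia, the 5000-base window was marked at 13 in NC (76.5%) and at 15 in KMT2D-KD (88.2%), beside 59.8% and 79.3% of all members and 30.2% and 42.9% of all protein-coding genes.

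By subunit the counts were alike. Of the 53 large-subunit genes, 31 were marked within 5000 bases in NC (58.5%, 44.1 to 71.9%) and 44 in KMT2D-KD (83.0%, 70.2 to 91.9%). Of the 34 small-subunit genes, 21 were marked in NC (61.8%, 43.6 to 77.8%) and 25 in KMT2D-KD (73.5%, 55.6 to 87.1%). Of the 10 paralogs and Y-linked genes, 2 were marked in NC (95% interval 2.52 to 55.6%) and 5 in KMT2D-KD (18.7 to 81.3%). Of the 77 other members, 50 were marked in NC (64.9%, 53.2 to 75.5%) and 64 in KMT2D-KD (83.1%, 72.9 to 90.7%). The intervals of the 10 genes overlapped those of the 77 in each list. They also included the shares of all protein-coding genes, 30.2% and 42.9%.

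No H3K4me1 interval in either list lay within 5000 bases of 14 members. Among them were RPL10, RPL10L, RPL13A, RPL22, RPL36, RPL39L, RPL4, RPLP2, RPS27L, RPS3A, RPS4Y1, RPS4Y2 and RPS6. RPS6, the target of the S6 kinases, RPL10, which joins the large subunit late in its maturation, and RPL4, of the exit tunnel, were thus unmarked. For some of these the gene record begins far from where the canonical transcript does, as at RPL4, where the canonical start lies 19677 bases further in, RPL36 with 15348, RPL22 with 9794 and RPL10 with 8422. Around the canonical start, RPL22 was marked in both lists, RPL4 in NC and RPL39L in KMT2D-KD. RPS6, RPS3A, RPL13A and RPLP2 have canonical starts within 98 bases of the gene start, so for them the choice of start does not change the result.

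Between the libraries, the KMT2D-KD list marked more members, as it did genes in general. Within 5000 bases 48 members were in both lists. The 4 members marked in NC alone were RPL37A, RPS13, RPS26 and RPS7 (4.6% of 87, against 3.51% of all protein-coding genes marked in NC alone). Around its canonical start, RPS26 also had a KMT2D-KD interval, of fold enrichment 4.17. In KMT2D-KD alone 21 were marked (24.1%), against 16.2% of all protein-coding genes. The log2 ratio of KMT2D-KD to NC counts was 0.41 for the members and 0.51 for all protein-coding genes, and for the downstream window 0.36 against 0.57. When the KMT2D-KD list was cut to its 64843 strongest intervals, 59 members remained marked against 52 in NC, and the log2 ratio was 0.18, beside 0.15 for all protein-coding genes. When only intervals with −log10 q of at least 5 were kept, 14 members were marked in NC (16.1%) and 34 in KMT2D-KD (39.1%), against 8.88% and 16.9% of all protein-coding genes, and the log2 ratio was 1.28 against 0.93. The members found in one list alone carried weaker intervals, with a median highest −log10 q of 3.32 for the 21 in KMT2D-KD and 2.8 for the 4 in NC. The 48 shared members had medians of 6.12 in KMT2D-KD and 4.16 in NC. Genes in general showed the same pattern. Over all protein-coding genes the medians were 3.49 in KMT2D-KD alone, 2.85 in NC alone, and 5.52 and 4.16 for shared genes.

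Interval by interval, 80 of the 102 NC intervals near members overlapped a KMT2D-KD interval (78.4%, 69.2 to 86.0%), against 70.0% of the NC intervals within 5000 bases of any protein-coding gene. Of the 143 KMT2D-KD intervals, 69 overlapped an NC interval (48.3%, 39.8 to 56.8%), against 41.9%. Upstream of members 10 of 18 NC intervals and 10 of 41 KMT2D-KD intervals did so, and for the remaining intervals the counts were 70 of 84 and 59 of 103. The overlap over all protein-coding genes was not split by side. Whether the members differ from other genes in this respect was therefore not tested.

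The strength of the mark at members was close to that at other genes. The highest fold enrichment within 5000 bases had a median of 4.28 in NC (range 2.82 to 7.32, 52 members) and of 4.75 in KMT2D-KD (2.92 to 8.44, 69 members), against 4.21 and 4.55 over all marked protein-coding genes. Among the 48 members in both lists, KMT2D-KD was higher in 34 and NC in 14. KMT2D-KD was thus higher in 70.8%, beside 68.9% of all protein-coding genes in both lists, and the median log2 difference was 0.2 (−0.3 to 1.09) beside 0.17. Of the 67 members with downstream coverage in either list, 55 had more of it in KMT2D-KD and 12 in NC (82.1%, beside 75.5% of all protein-coding genes).

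**Figure D5:**
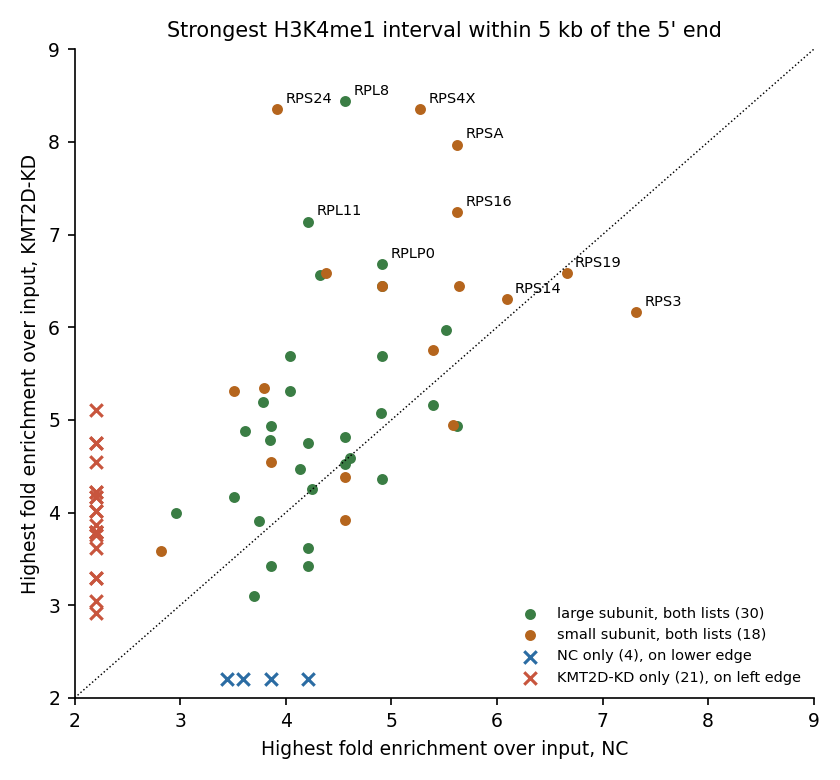
Highest fold enrichment over input among the H3K4me1 intervals within 5 kb of the 5′ end of each member, in NC (x axis) and KMT2D-KD (y axis), with large-subunit genes in green and small-subunit genes in brown. Above the dotted line of equality lie 34 of the 48 members in both lists, and crosses on the edges mark the 4 and 21 members found in 1 list.

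KMT2D and EBF2 intervals were not found near the members. Within 5000 bases of a 5′ end the count was 0 of 87 in all 4 lists, which allows a share of up to 4.15%. The background was as sparse, with 0.105% of all protein-coding genes near a KMT2D interval in NC and 0.0799% in KMT2D-KD, and 0.0948% and 0.0998% near an EBF2 interval, so an absence particular to the members could not be detected. Within 10000 bases the counts were still 0. Within 100000 bases RPL7A had an interval in all 4 lists, RPL18 in the KMT2D and EBF2 lists of KMT2D-KD, and RPL32 in the KMT2D list of KMT2D-KD. These are 1.15% and 3.45% of members for KMT2D in NC and KMT2D-KD, beside 1.58% and 2.01% of all protein-coding genes, and 1.15% and 2.3% for EBF2, beside 1.74% and 2.12%.

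Other gene groups were described beside the members. Of the 78 mitochondrial ribosomal protein genes, whose products serve translation in mitochondria and whose symbols begin with MRPL or MRPS, the 5000-base window was marked at 40 in NC (51.3%) and at 53 in KMT2D-KD (67.9%). Their intervals lay nearer to the start, with the highest bin at 1000 to 1499 bases in NC and 1500 to 1999 bases in KMT2D-KD, and medians of 1402 and 1389 bases for the nearest downstream interval. Within 1000 bases the NC list marked 10 of them and the KMT2D-KD list 20. The ratio of downstream to upstream coverage was 1.01 and 1.06. Of 16 other genes with TOP mRNAs or ribosome-bound products, among them FAU, RACK1 and EEF2, 11 were marked in NC and 12 in KMT2D-KD, with 8 downstream and 7 upstream in each list. Their nearest downstream interval lay at a median of 2853.5 bases by the NC list and 2590.5 by the KMT2D-KD list. That was farther out than in the members and in the mitochondrial group. Counted from the canonical transcript start, the downstream side was marked at 10 of them (62.5%) by the NC list and at 11 (68.8%) by the KMT2D-KD list, and the upstream side at 4 and 6. Protein-coding genes of 2 to 10 kb in length, a class set after the members' lengths had been seen, were marked downstream in 16.4% of 4057 genes in NC and 26.3% in KMT2D-KD, and so lay below all protein-coding genes (20.9% and 31.0%) and below the members.

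The surroundings of the members varied. Another protein-coding 5′ end lay within 5000 bases upstream of 21 members. From 1000 to 5000 bases upstream, 3 of these 21 were marked in NC and 10 in KMT2D-KD, and of the 66 other members 10 and 12 were. The shares over all protein-coding genes in that window were 13.5% and 20.9%. Small nucleolar RNA genes, which reside in introns of many ribosomal protein genes, numbered 60 inside 28 members. On chromosome 19, the 5000-base window was marked at 3 of 12 members by the NC list and at 9 by the longer KMT2D-KD list. Over all 87 members the counts were 52 and 69, and the shares of all protein-coding genes were 30.2% and 42.9%. No share was taken over the other genes of chromosome 19. Whether the rise was particular to this chromosome was therefore not tested. The part of neighbouring genes, copy number and transcription in these counts was not tested.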

How the data were processed

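ChIP-seq of KMT2D, EBF2 and H3K4me1 in SW1990 cells was deposited as 1 peak list per library for NC and KMT2D-KD, grouped by sample title. The authors filtered reads with in-house perl scripts and aligned them with BWA, and the submitters' processing notes also name MACS2, HOMER and hg38. Versions, peak-calling settings and what was done with duplicates and with reads mapping to several places are not given in the sources used here. The deposited narrowPeak values are a fold enrichment over input (a ratio), and per interval the −log10 of a p-value and of a q-value, all the authors' own, with a largest q of 0.0497 in NC and 0.0498 in KMT2D-KD for H3K4me1. These values describe, rank and filter intervals within lists.

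From the files were computed overlaps of at least 1 base with windows around 5′ ends, the first base of each GENCODE release 44 gene record (Python 3.11.15, pandas 2.3.3, numpy 2.4.6, scipy 1.17.1). Fragments and background at a summit were recovered by taking the fold as (fragments + 1) / (background + 1) and p as a Poisson tail, matched to within 0.001 in −log10 p. This gave whole fragments for 64839 of 64839 NC and 92129 of 92130 KMT2D-KD intervals tried. The calculations were tested on simulated intervals. The depth so recovered sets the smallest enrichment that could be listed.

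With 1 library per target and condition no test was made. Named were members with an interval within 1000 bases, the 5 members with the highest −log10 q per list, and a set of RPLP0, RPLP1, RPLP2, RPSA, RPL3, RPL4, RPL5, RPL10, RPL11, RPS3, RPS6, RPS14, RPS19 and RPS27A. Members without intervals, found in 1 list alone or near a KMT2D or EBF2 interval were named with their counts. Some results are not reported here or drawn gene by gene. The members, lists and rules were chosen with earlier results of these data known. Alternatives were the start used, stricter q and fold limits, list length, summit position, other windows and subsets of members.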

Additional observations from a re-analysis of the deposited data

How the results depend on the processing

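No paired analysis was possible because each target and condition had 1 library and the titles carry no replicate numbers, and leaving out a replicate was not possible for the same reason. Of 124 recalculations, 92 kept their value within 1.5 times or within the counting interval of the ratio, 32 moved and 0 reversed. Only the log2 ratios could be called reversed, since counts and medians have no sign. The counting interval was wide, −0.91 to 3.81 for the 1000-base ratio and −0.13 to 0.96 for the 5000-base ratio. A ratio inside it is therefore a weak check. The count of 0 in the first 500 bases was also found from the canonical start. The other alternatives run for it could only remove intervals, bases or members, so their counts of 0 were fixed in advance. These counts of 0 are included in the 92.

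Keeping intervals with −log10 q of at least 5 left 0 members within 1000 bases in each list, beside 1.5% and 3.6% of all protein-coding genes. Within 5000 bases it left 14 and 34 (NC and KMT2D-KD, log2 ratio 1.28), beside 8.88% and 16.9% of all (log2 ratio 0.93). It left 1 and 8 upstream, beside 3.92% and 7.61% of all, and 13 and 30 downstream, beside 5.28% and 10.8%. A fold enrichment of at least 5 left 0 and 0 within 1000 bases, beside 1.14% and 2.99% of all protein-coding genes. Within 5000 bases it left 12 and 26 (log2 ratio 1.12), beside 7.11% and 14.6% of all (log2 ratio 1.03). It left 0 and 6 upstream, beside 3.09% and 6.51% of all, and 12 and 22 downstream, beside 4.12% and 9.16%. In these settings the lists shrank to 16393 and 29832 intervals and to 12821 and 25123. The window of 500 bases gave 0 and 2 members (2.55% and 5.01% of all protein-coding genes), that of 2000 bases 20 and 31 (17.7% and 28.4% of all), and that of 2500 bases 31 in NC (21.7% of all). Within 1000 bases in KMT2D-KD, the canonical start gave 4 members (11.2% of all protein-coding genes) and the summit rule 3 (8.23% of all). Leaving out members whose canonical start lies over 500 bases inside the gene gave 3 of 70 there, beside 11.9% of all. The same subset left 8 of 70 upstream in NC, beside 13.5% of all. Without members that have another start upstream, 12 of 66 were marked upstream in KMT2D-KD, beside 20.9% of all. These last subsets were chosen after seeing the data. Widening the KMT2D and EBF2 windows to 100000 bases gave 1 (KMT2D, NC), 3 (KMT2D, KMT2D-KD), 1 (EBF2, NC) and 2 members (EBF2, KMT2D-KD), beside 1.58%, 2.01%, 1.74% and 2.12% of all protein-coding genes. With −log10 q of at least 5 no log2 ratio within 1000 bases and no NC value for the unmarked stretch could be given. The cause of the other shifts was not tested.

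Depth limits the lists to intervals of at least 8 fragments in NC and 7 in KMT2D-KD at the lowest background, and enrichment below that was not detectable. How reads shared by exons and processed pseudogenes were placed is not given in the sources used here.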

Other observations

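Ribosomal protein genes have left many processed pseudogenes, which carry the exons without the promoter or introns. GENCODE release 44 listed 1582 of them from 78 member genes, RPL21 with 131 having the most. An H3K4me1 interval overlapped 39 of the 1582 in NC (2.47%, 95% interval 1.76 to 3.35%) and 52 in KMT2D-KD (3.29%, 2.46 to 4.29%). Within 5000 bases of their 5′ ends, 15.2% were marked in NC (13.4 to 17.0%) and 19.7% in KMT2D-KD (17.8 to 21.8%). In contrast to the members, the pseudogenes were marked alike on both sides of the 5′ end. From 1000 to 5000 bases downstream the share was 8.28% in NC and 10.5% in KMT2D-KD, and upstream it was 7.46% and 11.4%.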
